A study of Sus scrofa with 6 samples.

Results

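Fc receptors, the receptors for the complement fragments C3a and C5a, and the formyl peptide receptors are the surface proteins with which blood leukocytes detect antibody, activated complement and bacterial peptides. A set of 9 such genes was looked up by symbol, and 5 of them had a row among the 11564 genes of the table: FCER1A, FCER1G, FCGR2B, FCGR1A and C5AR1. The other 4, FCGR3A, C3AR1, FPR1 and FPR2, had no row under these symbols and were not analysed here. As 4000 rows carried no symbol, a gene without a named row is not thereby shown to be unexpressed. All 5 receptors passed the filter on low values and were among the 10735 genes tested.

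RNA had been sequenced from the PBMCs (peripheral blood mononuclear cells) of 6 Yorkshire pigs aged 6 months, 3 labelled WT and 3 labelled as leptin-overexpressing, called leptin here. The leptin pigs were made by somatic cell nuclear transfer from Yorkshire fetal fibroblasts that had been transfected with a pig leptin construct and selected with neomycin, and the study's text names a leptin promoter as its driver. The control animals carried no transgene, and the number of founder cell clones behind the 3 leptin pigs is not given in the sources used here. The study asked, with these libraries, how the transcripts of circulating immune cells differed in leptin pigs, in which it described a lupus-like disorder.

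RNA of LEP, the gene carried by the transgene, went against the labels of both replicate 1 libraries. The LEP values do not separate RNA of the transgene from RNA of the pig's own gene. LEP was at 50.0, 0 and 0.118 FPKM in WT 1, 2 and 3 and at 0, 18.3 and 39.3 FPKM in leptin 1, 2 and 3, where FPKM is fragments scaled to transcript length and library total. Libraries are therefore named by their labels throughout, and directions below are between labels. WT 1 also stood apart in a list of neutrophil markers, of which 9 of 17 symbols had a row, with a summed level of 3534 FPKM against 418 to 1278 FPKM in the others. Of that sum, 3433 FPKM came from S100A8, S100A9 and S100A12, which monocytes also express. The other 6 rows summed to 102 FPKM in WT 1 and to 246 FPKM in leptin 2, the highest. Of the 246 FPKM in leptin 2, 225 FPKM came from MMP9, which was at 59.7 FPKM in WT 1. LTF was at 25.6 FPKM in WT 1 and at most 9.92 FPKM in the others. MMP8 was at 9.74 FPKM in WT 1 and at most 1.202 FPKM in the others. PGLYRP1 was also highest in WT 1, whereas AZU1 was highest in leptin 2 and ELANE in leptin 1. T cell markers summed to between 800 and 1392 FPKM and monocyte markers to between 689 and 1474 FPKM across the 6 libraries, so the defining genes of mononuclear cells were present. Leptin 2 had both the lowest T cell sum and the highest monocyte sum, and FCER1A and FCER1G were also highest there. The FPKM values hold no read counts, so sequencing depth is unknown and precision rests on 3 libraries per label.

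Antibody bound to an antigen is read by Fc receptors through their shared signalling partners. Activating receptors such as FCGR1A and the IgE receptor pass the signal on through FCER1G, the Fc receptor gamma chain, whose ITAM motif recruits the kinase SYK, whereas FCGR2B carries an inhibitory ITIM motif that recruits phosphatases. C5AR1 and the formyl peptide receptors are instead coupled to G proteins of the Gi class and guide neutrophils and monocytes towards sites of complement activation or infection.

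Among the 5 receptors, FCER1A alone separated the labels, lying higher in every leptin library, while the other 4 overlapped. None of the 5 passed an adjusted p of 0.05 in limma's moderated test on log2(FPKM + 1), and 1, FCER1A, had an unadjusted p under 0.05. Over all genes tested, 1.98% were higher and 1.19% were lower in the leptin libraries at that unadjusted threshold, and 0.00932%, a single gene, passed the adjusted one. That split, 213 genes higher and 128 lower, turned to 167 higher and 250 lower under median-of-ratios scaling between libraries. In 5% of tested genes the 3 leptin libraries all lay above the 3 WT libraries, and in 2.63% they all lay below. With 1 receptor of 5 on the higher side and 0 on the lower, the set is too small for its share to be read against these backgrounds. The median log2 fold change of the receptors was 0.19, against 0.059 over all genes tested, of which 63.1% were higher in the leptin libraries. That receptor median is the value of FCER1G, the middle of the 5. Without leptin 2, FCER1G was again the middle value, at -0.0096, against 0.10 over all genes then tested.

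**Figure D1:**
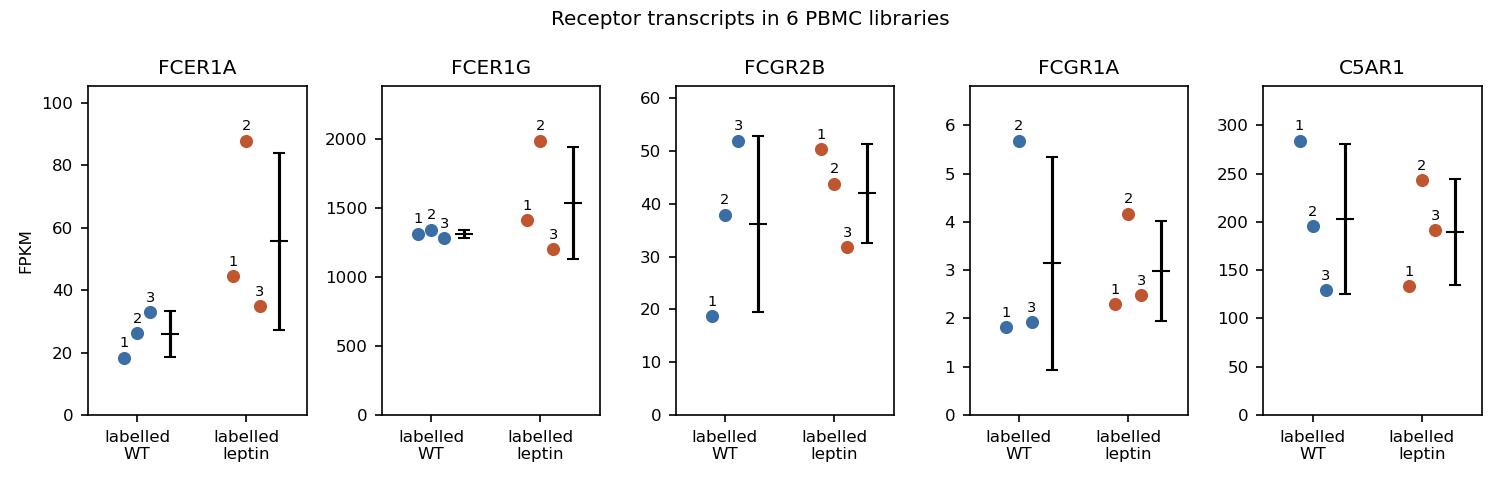
FPKM of the 5 receptors in each library, with 1 panel per receptor, 1 point per library and the mean and SD of each label. FCER1A is the receptor whose leptin libraries, at 34.7 to 87.7 FPKM, all lie above its WT libraries, at 18.3 to 33.0 FPKM.

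FPKM is scaled per length, so the levels of the receptors can be set side by side. FCER1G was the most abundant at 1203 to 1985 FPKM, and ranked 34 by mean level among the genes tested. C5AR1 followed at 129 to 284 FPKM, with rank 372. FCER1A, at 18.3 to 87.7 FPKM, and FCGR2B, at 18.7 to 51.9 FPKM, were not separated from each other. FCGR1A was the lowest at 1.82 to 5.68 FPKM, with rank 8550. Apart from FCER1A and FCGR2B, no 2 neighbours in this order overlapped across the 6 libraries.

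FCER1A (ENSSSCG00000006413) encodes the chain of the high-affinity IgE receptor that binds IgE, and in blood it is known from basophils and some dendritic cells. The table places it on chromosome 4 from 99069232 to 99075661, naming no genome build. It was at 18.3, 26.1 and 33.0 FPKM in WT 1, 2 and 3 and at 44.3, 87.7 and 34.7 FPKM in leptin 1, 2 and 3. The labels did not overlap, but leptin 3 lay only slightly above WT 3, and leptin 2 stood well above the other 5. The means were 25.8 ± 7.35 FPKM in WT and 55.6 ± 28.2 FPKM in leptin (SD, n = 3 each), a 2.16-fold ratio.

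On the log2(FPKM + 1) scale the difference in FCER1A was 1.01 (SE 0.35, 95% confidence interval 0.20 to 1.81), with an adjusted p = 0.993 over all genes in limma. The unadjusted limma value was p = 0.0204, whereas the exact two-sided permutation test gave p = 0.1, the smallest that 3 libraries against 3 allow. Only 36 of the 10735 genes tested had a larger log2 rise, whereas by p FCER1A ranked 123. The log2 difference was 0.63 without leptin 2, 0.79 without WT 1 and 0.89 without both replicate 1 libraries, and in the last 2 of these fits its unadjusted p was no longer under 0.05. The same held when the variance of each gene was used without moderation. In bulk RNA, more cells of a type and more RNA per cell cannot be told apart.

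MS4A2, the beta chain of the same IgE receptor, was at 11.7, 31.8 and 29.4 FPKM in the WT libraries and at 39.1, 67.0 and 16.2 FPKM in the leptin libraries. It was lowest in WT 1 and highest in leptin 2, as FCER1A was, but leptin 3 fell among the WT libraries (log2 difference 0.63, limma adjusted p = 0.993). GATA2, a transcription factor of basophils and mast cells, was at 3.8, 4.06 and 8.70 FPKM in WT and at 7.23, 22.3 and 7.49 FPKM in leptin (log2 difference 0.93, limma adjusted p = 0.993). The basophil and mast cell marker list, with 5 of 10 symbols present, summed to 19.2 to 43.1 FPKM in WT and 30.5 to 95 FPKM in leptin. Its member HDC, which makes histamine, stayed between 0.204 and 1.05 FPKM, and ENPP3 was at 0.114, 0.130 and 1.11 FPKM in WT and at 0.523, 0.337 and 0.0401 FPKM in leptin. KIT, the stem cell factor receptor of mast cells, was at 3.21, 4.5 and 3.36 FPKM in WT and at 4.12, 4.31 and 6.53 FPKM in leptin. ENPP3 and KIT did not have the profile of FCER1A (r of 0.25 and 0.26), whereas HDC was highest in leptin 2 as FCER1A was (0.83), and r with FCER1A over the 5 rows ran from 0.25 to 0.95 with a median of 0.83 (6 libraries, a description). The dendritic cell list, with 3 of 10 symbols present, summed to 141 to 257 FPKM in WT and 130 to 376 FPKM in leptin. Most of that sum was IRF7, an interferon-responsive gene that other leukocytes also express, and XCR1 and FLT3 together came to between 6.86 and 16.8 FPKM over the 6 libraries. The eosinophil list, with 3 of 7 symbols present, summed to 12.5 to 66.5 FPKM in WT and 64.3 to 75.7 FPKM in leptin. Most of that sum was ALOX15, a lipoxygenase, which was at 8.66, 22.3 and 57.9 FPKM in WT and at 67.8, 58.2 and 67.1 FPKM in leptin, without overlap (log2 difference 1.46, limma adjusted p = 0.993, unadjusted p under 0.05). The granule gene EPX, by contrast, was at 0.697 to 3.56 FPKM over the 6 libraries, with overlap, and IL5RA, a chain of the interleukin 5 receptor, was at 3.10, 6.67 and 5.18 FPKM in WT and at 4.86, 3.52 and 5.05 FPKM in leptin (log2 difference -0.094). Over these 3 rows r with FCER1A ran from -0.14 to 0.72. The part of these cells in the FCER1A difference was not tested.

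FCER1G (ENSSSCG00000006357), the gamma chain shared by the IgE receptor and the activating IgG receptors, lies on chromosome 4 from 97099149 to 97103132. It was at 1313, 1342 and 1279 FPKM in the WT libraries and at 1410, 1985 and 1203 FPKM in the leptin libraries. The WT libraries lay close together, whereas leptin 2 was the highest and leptin 3 the lowest of all 6. The means were 1311 ± 31.4 and 1533 ± 405 FPKM (SD, n = 3 each), and the log2 difference was 0.19 (95% confidence interval -0.26 to 0.65, limma adjusted p = 0.993). Without leptin 2 it was -0.0096.

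The balance of the IgE-binding chain to the shared chain was compared within each library. FCER1G exceeded FCER1A by 71.8, 51.4 and 38.8 times in the WT libraries and by 31.8, 22.6 and 34.6 times in the leptin libraries, without overlap. These plain FPKM ratios do not depend on scaling between libraries. The test was made on log2(FPKM + 1), where the added 1 pulls ratios of low genes towards 0 and leaves a small effect of scaling. On that scale FCER1A minus FCER1G was -5.65 ± 0.43 in WT and -4.84 ± 0.31 in leptin (SD, n = 3 each), a difference of 0.81 with an exact permutation p = 0.1, or 0.2 adjusted over the 2 ratios compared. FCER1A over MS4A2 ran from 0.82 to 1.56 in WT and from 1.13 to 2.15 in leptin, with overlap. The ratio of the IgE-binding chain to the shared gamma chain separated the labels and its ratio to the beta chain did not. As FCER1A by itself already separated the labels and FCER1G varied less, the first of these adds little to the FCER1A result.

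FCGR2B (ENSSSCG00000006350), the inhibitory IgG receptor, is the main Fc receptor of B cells and is also present on myeloid cells. It lies on chromosome 4 from 96888985 to 96908203, and its end is 190946 bp from the start of FCER1G. Its level was 18.7, 37.9 and 51.9 FPKM in the WT libraries and 50.3, 43.8 and 31.8 FPKM in the leptin libraries. WT 1 was the lowest, WT 3 was the highest, and the leptin libraries lay within the WT range. Means of 36.2 ± 16.7 and 42.0 ± 9.40 FPKM (SD, n = 3 each) gave a log2 difference of 0.30 (95% confidence interval -0.51 to 1.11, limma adjusted p = 0.993). The direction rested on WT 1, without which the difference was -0.10.

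Some B cell genes had a profile like that of FCGR2B. MS4A1, which encodes CD20, was at 49.3, 97.1 and 127.3 FPKM in WT and at 90.1, 88.2 and 87.3 FPKM in leptin. CD79B, a signalling chain of the B cell receptor, was at 102, 190 and 188 FPKM in WT and at 196, 190 and 164 FPKM in leptin. Both were lowest in WT 1, where the B cell list, with 6 of 11 symbols present, summed to 381 FPKM against 552 to 678 FPKM elsewhere. Pearson's r with FCGR2B over the 6 libraries was 0.94 for CD79B and 0.90 for MS4A1, as a description of 6 points that share library scaling. Over all 6 B cell rows it ran from 0.31, for the kinase BLK, to 0.94, with a median of 0.73. The part of B cell number in the FCGR2B levels was not tested.

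FCGR1A (ENSSSCG00000006678), the high-affinity IgG receptor of monocytes and macrophages and an interferon-responsive gene, lies on chromosome 4 from 108759132 to 108782557. It was at 1.82, 5.68 and 1.92 FPKM in the WT libraries and at 2.29, 4.17 and 2.48 FPKM in the leptin libraries. Both replicate 2 libraries were high, on either side of the labels, and the other 4 lay close together. The means were 3.14 ± 2.20 and 2.98 ± 1.03 FPKM (SD, n = 3 each), with a log2 difference of 0.035 (95% confidence interval -0.76 to 0.83, limma adjusted p = 0.998). Its sign turned to -0.010 under median-of-ratios scaling, so no direction is given.

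The inhibitory receptor exceeded the activating one in all 6 libraries. FCGR2B over FCGR1A was 10.3, 6.67 and 27.0 in the WT libraries and 22, 10.5 and 12.8 in the leptin libraries, and the labels overlapped. On the log2(FPKM + 1) scale, on which the low level of FCGR1A makes the gap smaller than in the plain ratios, FCGR1A minus FCGR2B was -3.18 ± 0.88 in WT and -3.44 ± 0.46 in leptin (SD, n = 3 each), a difference of -0.26 with an exact permutation p = 0.6, also 0.6 after adjustment over the 2 ratios. The IgG receptor genes are close relatives, and no row named FCGR3A was used, so fragments from a related gene could have been assigned to FCGR2B or FCGR1A. No other row of the table overlapped the position of any of the 5 receptors.

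C5AR1 (ENSSSCG00000029371), the receptor through which the complement fragment C5a attracts neutrophils and monocytes, lies on chromosome 6 from 48523113 to 48537524. It was at 284, 195.7 and 129 FPKM in the WT libraries and at 134, 243 and 191 FPKM in the leptin libraries. WT 1 and leptin 2 were the highest, WT 3 and leptin 1 the lowest, and the labels overlapped. The means of 202.9 ± 77.7 and 189 ± 54.7 FPKM (SD, n = 3 each) gave a log2 difference of -0.069 (95% confidence interval -0.80 to 0.66, limma adjusted p = 0.995). It turned to 0.21 without WT 1, to 0.16 without leptin 1 and to 0.44 without both.

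Some myeloid genes followed C5AR1 through the 6 libraries and others did not. CD14, the lipopolysaccharide coreceptor of monocytes, was at 291, 159 and 99.9 FPKM in WT and at 121, 263 and 166.5 FPKM in leptin, and C5AR1 over CD14 stayed between 0.924 and 1.29. S100A9, a calcium-binding protein of neutrophils and monocytes, was at 1031, 244 and 93.2 FPKM in WT and at 98.0, 370 and 164 FPKM in leptin. WT 1 and leptin 2 were again the highest and leptin 1 and WT 3 the lowest, over a wider range than that of C5AR1. Pearson's r with C5AR1 was 0.98 for CD14, 0.96 for the chemokine receptor CCR1 and 0.95 for S100A9 over the 6 libraries, which share their scaling. Over the whole monocyte list of 13 rows, however, r ran from -0.68 to 0.98 with a median of 0.61, was above 0.8 for 3 and was below 0 for 3. CSF1R, the receptor for a monocyte growth factor, and CX3CR1, a chemokine receptor of patrolling monocytes, gave 0.049 and 0.047. Over the 9 neutrophil rows it ran from -0.47 to 0.96 with a median of 0.83. The part of myeloid cell number in the C5AR1 levels was not tested.

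**Figure D2:**
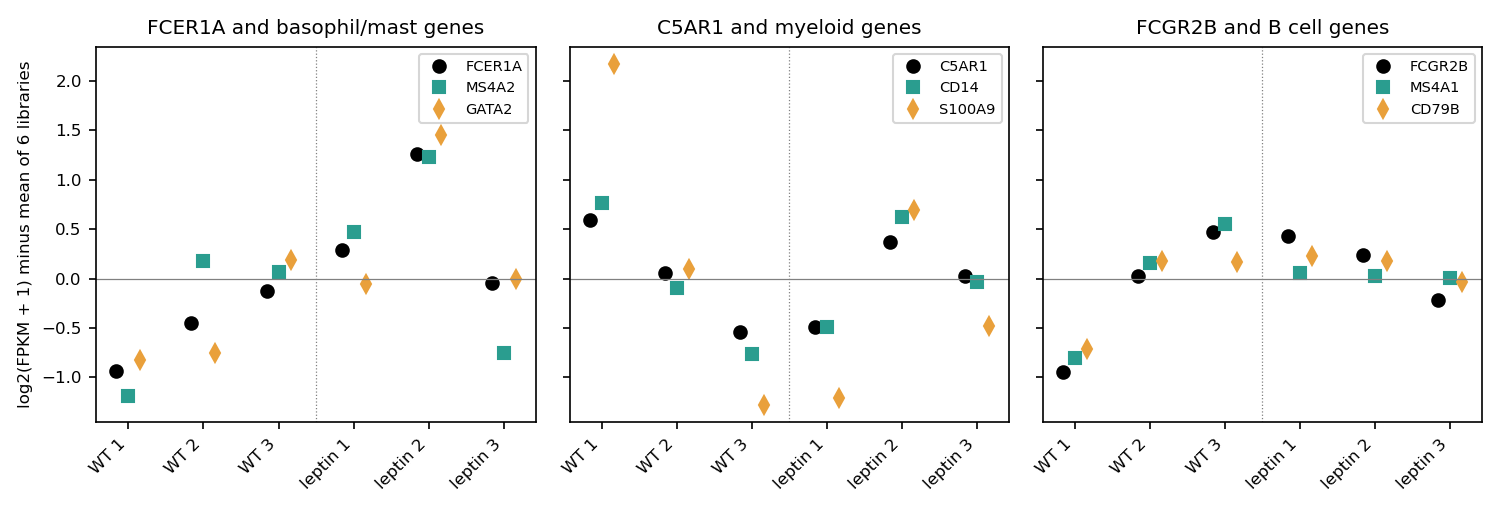
Difference of each gene's log2(FPKM + 1) from its mean over the 6 libraries, for FCER1A, C5AR1 and FCGR2B (black circles) each with 2 cell type genes (squares and diamonds), and a dotted line between the labels. WT 1 is low in the FCER1A and FCGR2B panels and highest in the C5AR1 panel.

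C5AR2, the second C5a receptor, was at 14.6, 6.64 and 8.30 FPKM in WT and at 6.56, 10.5 and 9.17 FPKM in leptin (log2 difference -0.11, limma adjusted p = 0.993). It was lower than C5AR1 in all 6 libraries, with C5AR1 over C5AR2 between 15.6 and 29.5.

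**Figure D3:**
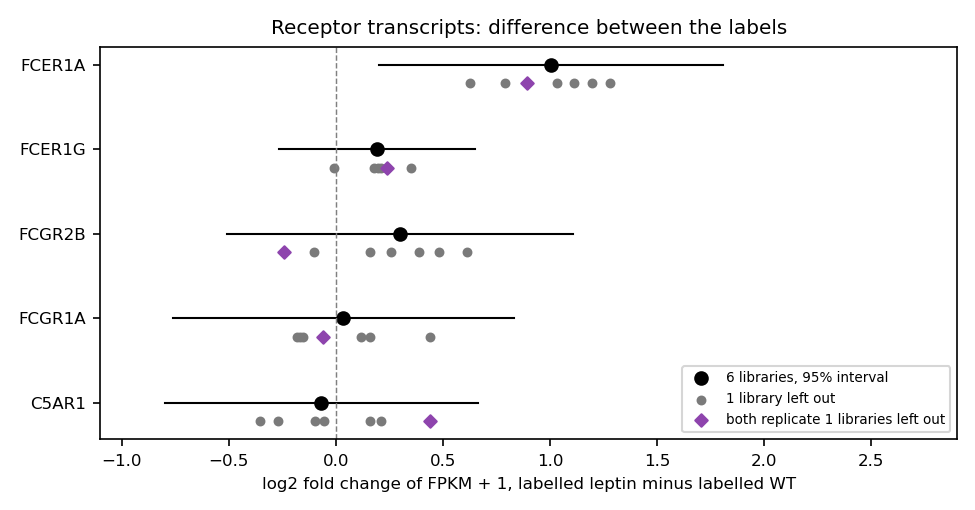
Log2 difference of each receptor, leptin minus WT, on the log2(FPKM + 1) scale with its 95% confidence interval from limma. The interval of FCER1A, 0.20 to 1.81, lies above 0, and those of the other 4 include 0.

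Some receptors varied together and others did not. Over the 6 libraries, Pearson's r was 0.81 between FCER1G and FCER1A, 0.63 between FCGR2B and FCER1A and -0.79 between FCGR2B and C5AR1, while FCER1A and C5AR1 gave -0.12. The highest level exceeded the lowest by 4.80 times for FCER1A, 3.12 times for FCGR1A, 2.78 times for FCGR2B, 2.20 times for C5AR1 and 1.65 times for FCER1G. The SD of FCER1A on the log2 scale exceeded that of 97.7% of genes tested, that of FCGR2B 94.4%, that of FCGR1A 93.5% and that of C5AR1 91.3%, against 63.0% for FCER1G. The shared chain was thus the steadiest of the receptors as well as the most abundant.

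The named genes most like each receptor across the 6 libraries were sought by Pearson's r among 5032 genes with a mean of at least 5 FPKM. FCER1A was most like H2AFY (0.997), MIEN1 (0.984) and CNOT8 (0.983), and FCER1G was most like SLC25A44 (0.991), ARPC5 (0.988) and F11R (0.986). FCGR2B was most like COPS3 (0.992), DCAF13 (0.990) and TAF9B (0.988). FCGR1A was most like the complement component C2 (0.987), PLAC8 (0.986) and CHMP5 (0.978). C5AR1 was most like RETN (0.991), which encodes the secreted protein resistin, CCPG1 (0.991) and CREBRF (0.984). With 6 points such values are common: the number of genes with r above 0.9 ran from 41 for FCGR1A to 308 for FCGR2B.

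The partners of the receptors were taken from 6 lists with 146 symbols, of which 84 genes were tested. The leptin libraries had the higher mean in 57 and the lower in 27, with a median log2 difference of 0.071, where 63.1% of all genes tested were higher. At an unadjusted p under 0.05, 1 was higher and 2 were lower, counts near the 1.98% and 1.19% of all genes tested, and none passed adjustment, with a smallest adjusted p = 0.993 in limma. The medians of the lists moved with single libraries. That of the ligands, 0.27, was 0.062 without leptin 2 and 0.095 without WT 3, and that of the other Fc receptors, 0.020, ran from -0.24 without WT 1 to 0.21 without WT 2. Without both replicate 1 libraries the ligands were at 0.43 and the other Fc receptors at -0.27. The related chemoattractant receptors, at 0.0996, ran from -0.11 without leptin 2 to 0.21 without WT 2. The other complement receptors, at 0.097, ran from 0.027 without WT 1 to 0.16 without WT 3. Their median turned to -0.027 without both replicate 1 libraries and was 0.032 under median-of-ratios scaling. The G protein signalling genes, at 0.078, ran from 0.022 without leptin 2 to 0.15 without leptin 3. They were at 0.012 under median-of-ratios scaling. The Fc receptor signalling genes, at 0.0023, ran from -0.031 without leptin 2 to 0.036 without WT 3 and were at -0.064 under that scaling.

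Among other Fc receptors, 6 of 9 were higher and 3 lower, and none had an unadjusted p under 0.05. FCGRT, the neonatal Fc receptor that protects IgG from breakdown, was at 122.4, 122.3 and 135.6 FPKM in WT and at 159, 169 and 139.5 FPKM in leptin. The labels did not overlap, although the difference was small (log2 difference 0.29, SE 0.15, limma adjusted p = 0.993).

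Of the 29 genes that carry Fc receptor signals, 15 were higher and 14 lower, with a median of 0.0023. CBL, a ubiquitin ligase that limits SYK and receptor signalling, was at 15.3, 11.7 and 10.2 FPKM in WT and at 7.60, 7.80 and 10.1 FPKM in leptin. It was lower in all leptin libraries, with leptin 3 close to WT 3 (log2 difference -0.49, SE 0.19, limma adjusted p = 0.993). TYROBP, the adaptor that resembles FCER1G in function, had a mean of 1194 FPKM and a log2 difference of 0.0023. SYK, downstream of FCER1G, differed by 0.15, and the phosphatases INPP5D and PTPN6, downstream of inhibitory receptors, by -0.13 and 0.11.

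Of 24 genes in signalling from G protein-coupled receptors, 20 were higher and 4 lower, with a median of 0.078. RGS10, which speeds the shut-off of Gi proteins, was at 28.9, 26.1 and 30.9 FPKM in WT and at 40.0, 46.6 and 33.1 FPKM in leptin. The labels did not overlap (log2 difference 0.46, SE 0.17, limma adjusted p = 0.993). GNAI2, a Gi protein alpha subunit, was abundant at a mean of 813 FPKM and differed by 0.076.

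Of 8 related chemoattractant receptors, 6 were higher and 2 lower. CMKLR1, the chemerin receptor, was at 5.26, 6.5 and 2.72 FPKM in WT and at 1.90, 3.09 and 2.32 FPKM in leptin. The labels overlapped between WT 3 and leptin 2 (log2 difference -0.72, SE 0.27, limma adjusted p = 0.993). The most abundant of this list was CCR1, at a mean of 251 FPKM, with a log2 difference of -0.24.

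Of 8 other complement receptors, 6 were higher and 2 lower, none with an unadjusted p under 0.05, and the most abundant was ITGB2, the integrin chain shared by complement receptors 3 and 4, at a mean of 411 FPKM (log2 difference 0.060). The receptors CR1 and CR2 had means of 3.64 and 1.95 FPKM. Of 6 genes for ligands or their production, 4 were higher and 2 lower, again with none at an unadjusted p under 0.05. The most abundant was CFD, the complement protease factor D, at a mean of 1090 FPKM (log2 difference 0.40, SE 0.26). It was at 1035, 732 and 1004 FPKM in WT and at 965, 1784 and 1019 FPKM in leptin. The labels overlapped, and leptin 2 stood well above the others.

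**Figure D4:**
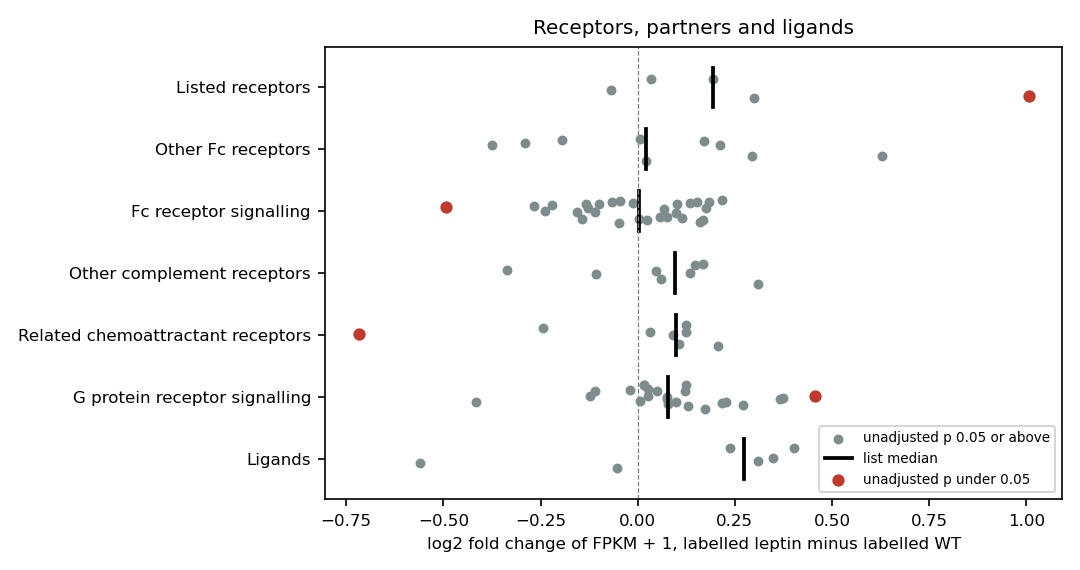
Log2 difference, leptin minus WT, on the log2(FPKM + 1) scale of the listed receptors and of each tested gene in the 6 partner lists. There is 1 point per gene, with the median of each list. The partner list medians run from 0.0023 to 0.27 with all 6 libraries, and the red points are the genes with an unadjusted p under 0.05 in limma.

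The table's own KEGG annotations place FCER1A and FCER1G in Fc epsilon RI signalling, and FCGR1A and FCGR2B in Fc gamma receptor-mediated phagocytosis and in systemic lupus erythematosus. C5AR1 carried no KEGG annotation. Of 28 tested genes in Fc epsilon RI signalling, 15 were higher and 13 lower, and 2 had an unadjusted p under 0.05, FCER1A and the cytokine TNF, both higher. Of 32 tested genes in Fc gamma receptor-mediated phagocytosis, 19 were higher and 13 lower, and 0 reached an unadjusted p of 0.05 in limma or passed adjustment. Of 29 tested genes in the lupus annotation, 20 were higher and 9 lower, with TNF higher and the costimulatory ligand CD80 lower at that threshold. Over all genes tested, 1.98% were higher and 1.19% lower at that threshold, and these counts of 0 to 2 per annotation are too small to be read as differing from it. These annotations were chosen after values had been seen and are a description.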

How the data were processed

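PBMC RNA of 6 pigs, 3 per label, was measured by strand-specific RNA-seq. The authors deposited 1 FPKM value per gene and library. The paper names Bowtie, the Ensembl version 75 transcriptome and RSEM for paired-end reads of 101 bp, whereas the submitters' processing notes name FastQC, STAR 2.5, Cuffnorm and DESeq 1.22.1, and which of these made the FPKM values is not settled. How fragments shared by related genes were divided depends on that choice. The log2 fold changes and the p-values of the authors' own comparison, also deposited, were not used. The animal code in the column names, given in the labels, tied columns to samples.

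Genes reaching 1 FPKM in 3 or more libraries (10735) were kept. Their log2(FPKM + 1) values were fitted on the label alone with limma 3.58.1 under R 4.3.3, with neither a trend nor robust moderation, and the two-sided p-values were adjusted by the Benjamini-Hochberg method over all kept genes. Fold changes on this scale understate those of low genes. Ratios were compared by exact permutation over libraries, with every arrangement enumerated, and their p-values were adjusted by the Benjamini-Hochberg method in SciPy 1.17.1. Each library carries its own animal code, and p-values measure the spread between these libraries. The fit was run on simulated data with planted log2 differences larger than that of any receptor. That run does not measure its power for differences as small as those of the receptors. Of the 5 gene identifiers, 3 carried the same symbol in the reference name table and 2 were not listed there.

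The receptors and lists were chosen with earlier results of these data known. Named genes are the receptors, LEP, partner-list genes with an unadjusted p under 0.05, up to 2 of the most abundant per partner list and the 3 genes most like each receptor. FCGRT, C5AR2, SYK, INPP5D, PTPN6, CR1, CR2, TNF, CD80 and the cell type genes given with values were added after their values were seen. Alternatives were the pseudocount, the filter, scaling, variance, the replicate number as a block and libraries left out. Correlations of receptors with whole marker lists were added after the values were seen.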

Additional observations from a re-analysis of the deposited data

How the results depend on the processing

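The labels share replicate numbers, but these belong to different animals and same-numbered libraries did not deviate together (correlations of their deviations -0.28, 0.13 and -0.0073). With the replicate number as a block, 2 genes passed the adjusted p. In a balanced design the block cannot change a difference itself, only its error. Of all genes, 1 passed the adjusted p, against 0 when an FPKM of at least 1 was required in every library, 0 with each gene's own variance, 0 without both replicate 1 libraries, and 0 (leptin 1) to 3 (WT 3) with the single library named left out. The 213 genes higher at an unadjusted p under 0.05 became 104 without both replicate 1 libraries and 135 (leptin 1) to 608 (WT 3) with 1 library left out. The 128 lower became 250 under median-of-ratios scaling and 95 (leptin 2) to 238 (WT 3) with 1 library left out. FCER1A had a log2 difference of 0.63 to 1.28 over the 14 alternatives, where its sign could not turn when libraries were left out, since the labels do not overlap. Its p ran from 0.00492 to 0.0937, under 0.05 in 11, and its adjusted p from 0.614 to 1. The count of receptors at that threshold was therefore 0 with each gene's own variance, 0 without both replicate 1 libraries and 0 to 1 with single libraries left out. No receptor passed the adjusted p in any of the 14. Receptors without overlap numbered 1 to 2 with single libraries left out, FCGR1A joining without WT 2 and FCER1G without leptin 3. Fewer libraries separate more easily, and the share of all genes without overlap was not computed for these fits. The added receptors are therefore not read as a result. Without both replicate 1 libraries FCGR1A was -0.059, FCGR2B -0.24, C5AR1 0.44 and the FCGR1A to FCGR2B ratio 0.18, and FCGR1A was -0.010 under median-of-ratios scaling. With single libraries left out the ranges were -0.18 to 0.44 for FCGR1A, -0.10 to 0.61 for FCGR2B, -0.0096 to 0.35 for FCER1G, -0.36 to 0.21 for C5AR1 and -0.77 to 0.053 for that ratio. The FCER1A to FCER1G difference ran from 0.59 to 1.02, again without overlap to begin with. The median of all genes moved from 0.059 to 0.0020 under median-of-ratios scaling. The causes were not tested.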
